A study of Mus musculus with 8 samples.

Results

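Antigen presentation was followed in the mouse uterus through 33 genes, taken by name from the 52308 genes of the count table. They comprise 20 genes of the major histocompatibility complex (MHC) class I pathway, 11 of the class II pathway and 2 class I-like genes, Cd1d1 and Mr1. The libraries came from the uterus of ICR female mice, an outbred stock, at 6 to 8 weeks of age. No mouse carried a stated allele or received a stated treatment. The 4 groups are stages of the cycle read from the cells of a vaginal smear: proestrus, then estrus (around ovulation), metestrus and diestrus, with 2 libraries at each stage. The labels do not say whether the libraries of a stage came from separate mice, so each p-value measures only the spread between these libraries. Whole tissue was sequenced, and fewer cells of a type and less RNA per cell cannot be told apart in any result here.

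MHC class I molecules show peptides from inside the cell to CD8 T cells and are made by nearly all nucleated cells. The proteasome cuts the peptides, the TAP transporter carries them into the endoplasmic reticulum, and a heavy chain pairs there with beta-2 microglobulin. Class II molecules are made mainly by dendritic cells, macrophages and B cells and show peptides from engulfed material to CD4 T cells. Interferon gamma is the classical inducer of both pathways, through the regulators NLRC5 for class I and CIITA for class II.

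Library totals lay between 17863546 and 21896786 counts, and levels are given in CPM, counts scaled to library size, with edgeR's TMM factors. All 33 genes passed the filter on low counts, among 18114 genes tested. A gene is called where the adjusted p of edgeR's quasi-likelihood test is under 0.05, and fold changes are log2 values with a standard error (SE). The libraries of a stage lay more than 2-fold apart for 1448 of the tested genes at proestrus, 1282 at estrus, 837 at metestrus and 2713 at diestrus. The uterine markers Esr1, Pgr and Hoxa10 were present in every library, with Esr1 between 300.5 and 463.6 CPM. Alb, the liver's albumin gene, read 82.7 and 0.942 CPM at proestrus, 649 and 477 at estrus, 0 and 0.0427 at metestrus, and 0.404 and 0.0504 at diestrus. It stood high in both estrus libraries and in proestrus library 1.

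Of the 33 genes, 21 lie on chromosome 17 between positions 33915899 and 37274484 (GRCm38), where the mouse MHC sits, and 12 lie elsewhere. The stretches before the start sites of 5 genes are shown with letters of sequence elements through which MHC genes are known to be controlled. Not every stretch holds each element, and in H2-Eb1 only CCAAT was matched. Each line gives 200 bases before a start site, read 5′ to 3′ on the gene's strand from RefSeq (GRCm38.p6). Capitals mark CCAAT (the Y box), TGACG (the core of the X2 box), GAANNGAAA or a pair of GAAA with 2 bases between (interferon response cores), and the palindromic NF-kB site of the class I enhancer A (the capitals that begin with GGGGATT), each on either strand. In H2-Aa, TGACGTCA holds TGACG on both strands, so these matches overlap. A marked CCAAT need not be the Y box, since H2-K1, H2-D1 and H2-Eb1 each hold 2. The intervals are chr17:34000334-34000533 for H2-K1 (minus strand), chr17:35262894-35263093 for H2-D1 (plus), chr2:122147487-122147686 for B2m (plus), chr17:34287824-34288023 for H2-Aa (minus) and chr17:34305667-34305866 for H2-Eb1 (plus).
H2-K1: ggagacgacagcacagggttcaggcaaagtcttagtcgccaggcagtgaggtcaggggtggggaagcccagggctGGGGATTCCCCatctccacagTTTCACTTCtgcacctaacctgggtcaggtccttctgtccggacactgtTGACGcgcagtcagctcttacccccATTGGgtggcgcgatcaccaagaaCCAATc
H2-D1: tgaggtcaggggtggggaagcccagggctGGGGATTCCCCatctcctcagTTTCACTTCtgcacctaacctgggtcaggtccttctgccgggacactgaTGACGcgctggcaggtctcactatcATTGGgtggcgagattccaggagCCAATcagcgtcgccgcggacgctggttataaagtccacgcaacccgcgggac
B2m: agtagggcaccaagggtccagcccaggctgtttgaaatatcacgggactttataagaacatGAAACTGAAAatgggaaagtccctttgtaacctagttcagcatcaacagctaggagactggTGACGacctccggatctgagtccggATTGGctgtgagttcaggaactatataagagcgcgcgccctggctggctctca
H2-Aa: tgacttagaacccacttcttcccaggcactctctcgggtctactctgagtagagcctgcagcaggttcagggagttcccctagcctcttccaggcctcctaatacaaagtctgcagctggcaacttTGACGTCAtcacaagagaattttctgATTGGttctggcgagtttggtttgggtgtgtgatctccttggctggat
H2-Eb1: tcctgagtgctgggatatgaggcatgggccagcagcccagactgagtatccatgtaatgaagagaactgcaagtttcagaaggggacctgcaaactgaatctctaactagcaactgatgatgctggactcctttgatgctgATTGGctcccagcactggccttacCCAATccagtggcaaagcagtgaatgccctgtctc
The letters were searched in the 250 bases before each start, and they were chosen with these sequences in view. RefSeq promoters were at hand for 26 of the 33 genes, 17 of them class I and 8 class II. CCAAT stood in promoters of 12 of the 17 class I and 7 of the 8 class II genes, against 37.5% of 27025 genes in all. Shares are of genes, and a gene with several promoters counted where any of them matched. TGACG stood in 10 of the class I promoters and 1 class II promoter, that of H2-Aa, against 19.8% of all. The arrangement of TGACG followed by ATTGG after 10 to 40 bases was found in H2-K1, H2-D1, H2-Q7, H2-M3, B2m and H2-Aa, and in 0.951% of all. The GAANNGAAA core was found in 6 class I promoters and in Ctss, against 7.3% of all, and the pair of GAAA in H2-T22, H2-T23, B2m and Ctss, against 3.46% of all. The NF-kB site was found in H2-K1, H2-D1 and H2-Q6, and in 0.0333% of all these genes. A match describes letters in a window and does not show that a factor binds there.

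Class I and class II transcripts followed different courses over the cycle. Both were high in estrus. In its sum, class I was also high in proestrus and low in metestrus and diestrus. Several chain genes departed from this. H2-D1 and H2-Q4 in proestrus library 2 lay among the metestrus and diestrus values. B2m, the largest part of the sum, read 577 CPM in that library and 576 in diestrus library 2. H2-M3 overlapped between proestrus and diestrus, and H2-Q6 and H2-Q7 were on average lowest in proestrus. Of the 8 heavy chains, 1 was called higher in proestrus than in diestrus. The class II sum was lowest in proestrus and higher in diestrus than in metestrus, though 0 class II genes were called between those 2 later stages. Across the 4 stages 19 of 20 class I and 6 of 11 class II genes were called, against 39.1% of all tested genes, as were Cd1d1 and Mr1. The class I exception was H2-M3 (adjusted p = 0.0897). The class II genes called were Ciita, H2-Ab1, H2-DMa, H2-DMb1, Cd74 and Ctss. Without proestrus library 1 or 2, or metestrus library 2, the class II count was 3, 2 and 3. Mean levels were highest in estrus for 17 class I genes and in proestrus for 3 (Erap1, Psme1 and Psme2). They were lowest in diestrus for 12 class I genes, in metestrus for 6 and in proestrus for 2 (H2-Q6 and H2-Q7). Of the 11 class II genes, 10 were lowest in proestrus.

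Summed per kilobase of exon, the 20 class I genes reached 2313 and 1552 CPM at proestrus, 3470 and 3272 at estrus, 1336 and 1206 at metestrus, and 1164 and 1231 at diestrus. The 11 class II genes summed to 303 and 288 CPM per kilobase at proestrus, 730 and 1020 at estrus, 490 and 496 at metestrus, and 698 and 692 at diestrus. B2m was the largest part of the first sum and Cd74 of the second. Class I exceeded class II 7.64-fold and 5.39-fold in the proestrus libraries, but 1.67-fold and 1.78-fold in diestrus. The log2 ratio of class II to class I was -2.93 and -2.43 at proestrus, -2.25 and -1.68 at estrus, -1.45 and -1.28 at metestrus, and -0.74 and -0.83 at diestrus. The stages did not overlap in this ratio. The order of the stage means was the same without H2-Eb1, with the chain genes only and without the highest gene of each class, but neighbouring stages then overlapped. Without H2-Eb1 proestrus library 2 and estrus library 1 were both at -2.44, and with the chain genes only they were at -2.38 and -2.50. Without the highest gene of each class, estrus (-1.80 and -1.68) lay between the metestrus libraries (-1.92 and -1.27), so the step between these stages leaned on B2m and Cd74. In the ratio over all genes, the gap between proestrus and estrus was the least clear beside its spread, with means of -2.68 ± 0.36 and -1.97 ± 0.40 (SD, n = 2). No test was made of the ratio, since its genes were chosen with earlier results of these data known. For a single pair of stages, an exact permutation of 2 libraries against 2 also cannot give a two-sided p below 0.333.

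**Figure D1:**
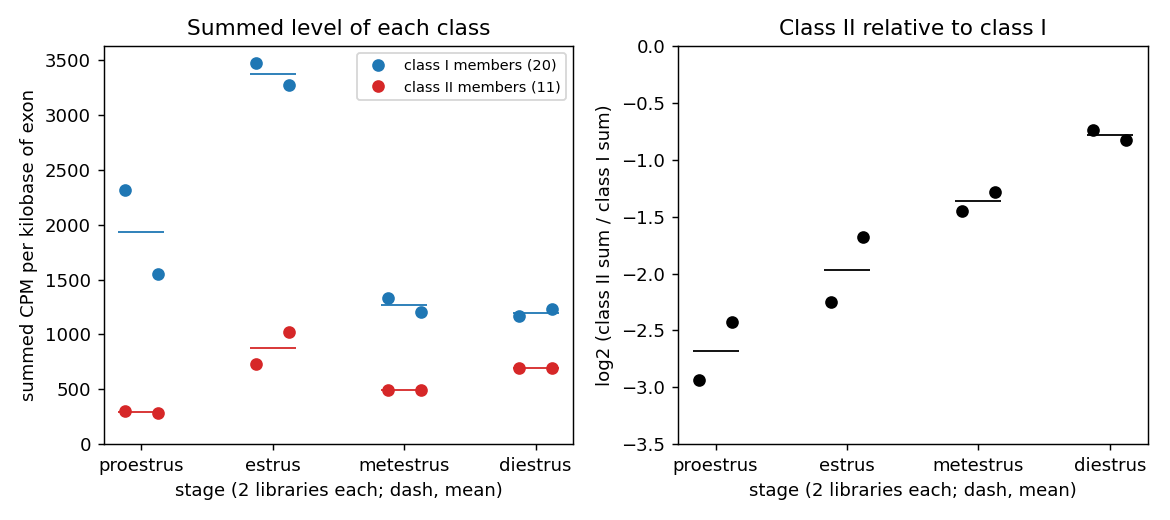
Summed level of the 20 class I and 11 class II genes in CPM per kilobase of exon (left) and the log2 ratio of class II to class I (right), by stage. Points are libraries and dashes are stage means; class I peaks in estrus at 3470 and 3272, class II is lowest in proestrus at 303 and 288, and the ratio runs from -2.93 in a proestrus library to -0.74 in a diestrus library.

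Class I fell as a whole between estrus and metestrus. All 20 genes were called lower in metestrus (12 without estrus library 1, and 10 and 11 when metestrus library 1 or 2 was left out). Of all tested genes 36.2% were called in this pair, 19.5% lower and 16.7% higher. The median log2 change of the 20 class I genes was -1.2, beside -0.05 for all tested genes. Of the 20 calls, 9 held under every alternative run: B2m, H2-T23, Nlrc5, Psmb10, Psmb9, Psme1, Tap1, Tap2 and Tapbp.

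Between proestrus and estrus 3 of 20 class I genes were called, all higher in estrus (H2-Q6, H2-Q7 and B2m), against 15.1% of tested genes called in either direction, 8.12% higher and 6.94% lower, and the median change was 0.37 beside 0.01. None of these 3 calls held under every alternative. Each was lost without proestrus library 2, without either estrus library and without either metestrus library. H2-Q6 and H2-Q7 were also lost without proestrus library 1. DESeq2 called 5 class I genes in this pair. None of the 5 proteasome genes, and none of the 5 genes of transport, loading and trimming, was called by edgeR between proestrus and estrus, and 0 of them had an unadjusted p under 0.05. All 10 of those were called higher in proestrus than in diestrus, with median changes of 1.32 and 0.72. Among the 8 heavy chains 1, H2-K1, was called higher in proestrus than in diestrus. That call had an adjusted p of 0.0499, which reached 0.169 without proestrus library 1 and ended without each other proestrus, metestrus or diestrus library.

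From diestrus to proestrus 12 class I genes in all were called higher, against 22.4% of tested genes called in either direction, 12% higher and 10.4% lower, with a median of 0.94 beside -0.01. That count was 5 without proestrus library 1 and 4 when only the libraries of these 2 stages were fitted, and Psmb10, Psme1 and Psme2 held under every alternative. Between estrus and diestrus 19 were called higher in estrus, against 23.8% of tested genes called in either direction, 13.9% higher and 9.97% lower, with a median of 1.38 beside -0.02, and 11 of the 19 calls held throughout. Between proestrus and metestrus 12 were called lower in metestrus, against 16.9% of tested genes called in either direction, 10.3% lower and 6.68% higher, with a median of -0.81 beside 0.01. Leaving out proestrus library 1 or 2 gave counts of 1 and 4, and leaving out metestrus library 1 or 2 gave 1 and 0. Between metestrus and diestrus edgeR called 0 class I genes (2 without diestrus library 2), against 0.508% of tested genes (0.282% higher and 0.226% lower in diestrus), with 1 at an unadjusted p under 0.05, and DESeq2 and limma-voom called 0. The median change between these stages was -0.18 beside 0.02. These pairs of stages share libraries, so their counts are not independent of each other.

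**Figure D2:**
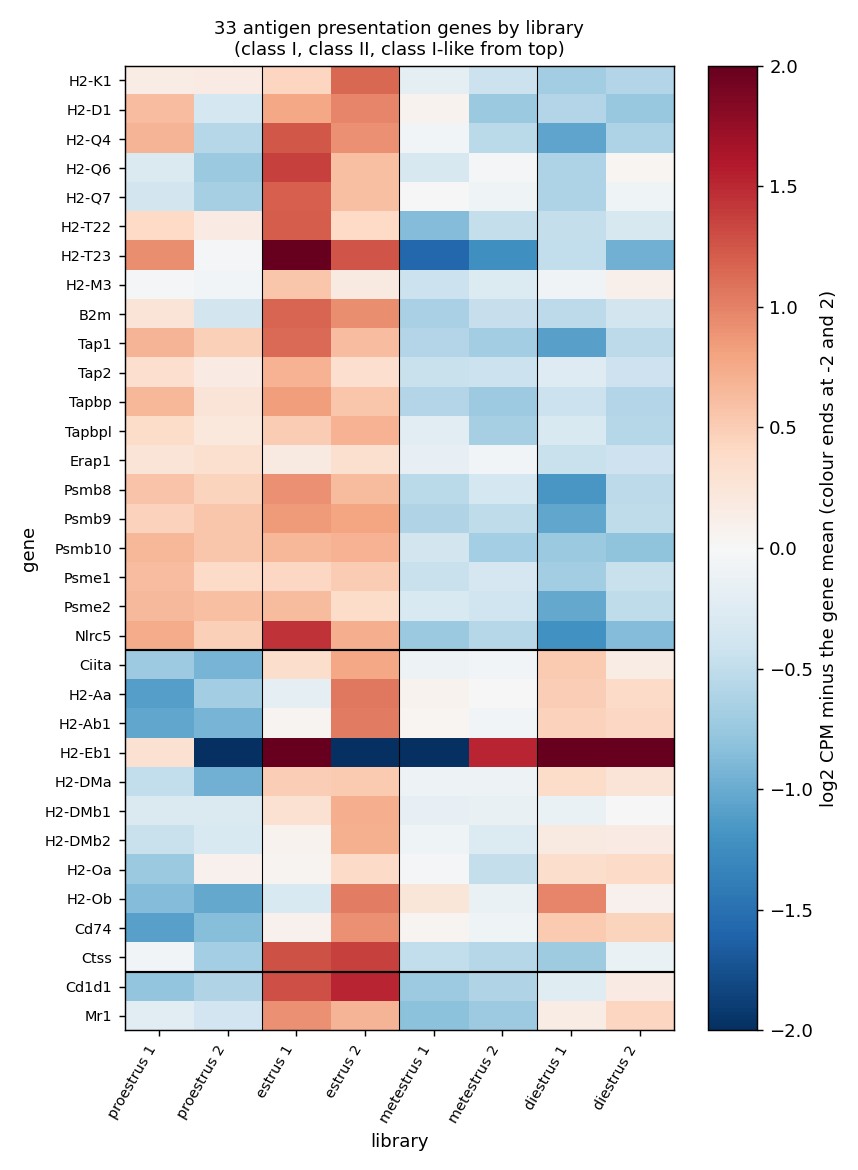
Level of each of the 33 genes in each of the 8 libraries, as log2 CPM minus the mean of the gene over libraries, with class I at the top, class II in the middle and the class I-like genes at the bottom. Colours end at -2 and 2; the class I rows are red in proestrus and estrus and blue in metestrus and diestrus for most genes, and H2-Eb1 changes colour within stages.

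Among the heavy chains, the classical H2-K1 and H2-D1 present peptides on the surface of most cells. H2-K1 read 462 and 468 CPM at proestrus, 565 and 923 at estrus, 368 and 311 at metestrus, and 256 and 278 at diestrus. H2-D1 read 1574 and 803.5 at proestrus, 1748 and 2019 at estrus, 1068 and 612 at metestrus, and 679.5 and 603 at diestrus. For both genes the estrus libraries were the highest, although the H2-D1 value of proestrus library 1 came near them. From estrus to metestrus H2-K1 fell by 1.13 ± 0.23 on the log2 scale (SE; adjusted p = 0.012, edgeR; up to 0.0864 without metestrus library 2). H2-D1 fell by 1.16 ± 0.37 there (adjusted p = 0.0485, edgeR), a call that ended without any one estrus or metestrus library (up to 0.224 without metestrus library 2).

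H2-T23 encodes Qa-1, a nonclassical chain that presents leader peptides of other class I chains to receptors of natural killer cells. It read 179 and 91.3 CPM at proestrus, 404 and 226 at estrus, 31.8 and 40.1 at metestrus, and 67.0 and 48.2 at diestrus. The estrus mean was 8.76 times the metestrus mean, the widest range of the 33 genes, and no stage overlapped another. From estrus to metestrus H2-T23 fell by 3.13 ± 0.43 on the log2 scale (adjusted p = 0.00362, edgeR; at most 0.035 under the alternatives). H2-Q4 read 130 and 54.6 CPM at proestrus, 193 and 153 at estrus, 78.5 and 55.7 at metestrus, and 39.3 and 53.0 at diestrus, so proestrus spread more than 2-fold and both metestrus libraries stood above those of H2-T23. H2-Q6 and H2-Q7, genes of the Qa-2 family, rose into estrus by 1.53 ± 0.36 (adjusted p = 0.0351, edgeR; up to 0.173 without proestrus library 2) and 1.43 ± 0.28 (adjusted p = 0.0224, edgeR; up to 0.126 without proestrus library 2). H2-M3, which presents formylated bacterial peptides, stayed between 7.27 and 14.4 CPM.

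Counts of these chains are uncertain, since the genes resemble each other. Of the 50-base windows along its exons, H2-T22 shares 34.5% with other genes (mostly H2-T10), H2-Q6 32.0%, H2-Q7 26.4%, H2-Q4 21.8%, H2-T23 13.6%, H2-D1 12.8% and H2-K1 9.63%. The gene that shares most windows with H2-Q7 is H2-Q10, a chain secreted by the liver, and for H2-Q6 it is H2-Q7. H2-T22 also overlaps a gene on the opposite strand over 29.4% of its exon bases.

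B2m encodes the light chain of all class I molecules and shares no such window with another gene. It read 886.5 and 577 CPM at proestrus, 1664 and 1417 at estrus, 476 and 540 at metestrus, and 519 and 576 at diestrus. Estrus stood above all other stages, while proestrus library 2 lay next to the diestrus values. B2m rose by 1.07 ± 0.22 from proestrus to estrus (adjusted p = 0.0253, edgeR; up to 0.131 without estrus library 1). It fell by 1.60 ± 0.22 from estrus to metestrus (adjusted p = 0.0039, edgeR; at most 0.0375 under the alternatives). Over the 8 libraries the gene most like B2m was Serpinc1, which encodes antithrombin of the liver (Pearson's r = 0.995 on log2 of CPM plus 0.5). Fgg and F2, which encode fibrinogen gamma and prothrombin, followed closely (r = 0.994 each).

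H2-Q10, a class I chain secreted by the liver, read 6.00 and 0.248 CPM at proestrus, 22.7 and 14.96 at estrus, 0.580 and 1.45 at metestrus, and 1.03 and 0.856 at diestrus. Its order of libraries resembles that of Alb given above. H2-Q7 read 7.79 and 6.35 CPM at proestrus, 22.9 and 15.2 at estrus, 9.99 and 9.40 at metestrus, and 6.56 and 9.47 at diestrus. H2-Q7 was thus close to H2-Q10 in estrus and above it in the other stages. The part of reads from H2-Q10 in the estrus calls of H2-Q6 and H2-Q7 was not tested. The 6 markers of other tissues summed to 147 and 49.2 CPM at proestrus, 740 and 592 at estrus, 56.7 and 61.9 at metestrus, and 79.5 and 52.4 at diestrus. Of the 6, 3 were called across the stages, against 39.1% of all tested genes. The part of these transcripts in the estrus values of B2m and the heavy chains was not tested.

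The immunoproteasome subunits replace the constitutive catalytic subunits and favour peptides that fit class I. Psmb10 read 73.3 and 68.2 CPM at proestrus, 73.7 and 75.1 at estrus, 36.1 and 28.8 at metestrus, and 27.6 and 26.6 at diestrus. Proestrus and estrus formed one level and metestrus and diestrus another, with no overlap. Psmb10 was 1.38 ± 0.13 higher on the log2 scale in proestrus than in diestrus (adjusted p = 0.00191, edgeR) and fell by 1.2 ± 0.13 from estrus to metestrus (adjusted p = 0.00225, edgeR). Both calls held under every alternative, with adjusted p at most 0.0285.

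Psmb9 read 32.0 and 34.2 CPM at proestrus, 41.7 and 40.2 at estrus, 15.3 and 16.2 at metestrus, and 11.3 and 16.3 at diestrus. Psmb8 read 65.1 and 59.3 CPM at proestrus, 82.0 and 68.0 at estrus, 30.2 and 34.4 at metestrus, and 19.5 and 30.5 at diestrus. For both genes the proestrus and estrus libraries all lay above the other 4. Psme1 and Psme2 encode the PA28 activator that caps the proteasome. From diestrus to proestrus they rose by 1.06 ± 0.14 (adjusted p = 0.00411, edgeR) and 1.37 ± 0.18 (adjusted p = 0.00464, edgeR), and both calls held under every alternative. Psme2 shares 28.3% of its windows with its copy Psme2b.

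The constitutive subunits Psmb5, Psmb6 and Psmb7, of which Psmb6 and Psmb7 were picked for their role after their values were seen, are replaced by those of Psmb8, Psmb9 and Psmb10. All 3 were highest in proestrus. From proestrus to estrus Psmb5 fell by 0.53 ± 0.13 (adjusted p = 0.0409, edgeR) and Psmb6 by 0.58 ± 0.12 (adjusted p = 0.0238, edgeR), while the change of Psmb7 was -0.54 ± 0.14 (adjusted p = 0.0503, edgeR). In the step from estrus to metestrus, in which every immunoproteasome gene was called lower, Psmb6 rose by 0.38 ± 0.12 (adjusted p = 0.044, edgeR). Psmb5 and Psmb7 were not called there, with changes of -0.06 ± 0.13 and 0.19 ± 0.14. Psmb5 was 1.74-fold higher in proestrus than in diestrus (adjusted p = 0.00873, edgeR). Of the 16 genes of the general proteasome and endoplasmic reticulum loading list, 11 were called lower in estrus than in proestrus and 0 higher, against 6.94% and 8.12% of all tested genes. In metestrus against estrus 6 of them were called higher and 1 lower, against 16.7% and 19.5%. In proestrus against diestrus 7 were called higher and 0 lower, against 12% and 10.4%, the direction of the class I calls in that pair.

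Tap1 and Tap2 form the peptide transporter, Tapbp and Tapbpl encode tapasin and its relative, which load and edit the peptide, and Erap1 trims it. Tap1 read 75.8 and 65.6 CPM at proestrus, 104 and 72.3 at estrus, 31.7 and 29.2 at metestrus, and 22.2 and 32.9 at diestrus. Tapbp read 245 and 185 CPM at proestrus, 276 and 228 at estrus, 103 and 93.7 at metestrus, and 115 and 103 at diestrus. In both genes proestrus and estrus overlapped each other and lay wholly above metestrus and diestrus.

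From estrus to metestrus Tap1 fell by 1.53 ± 0.24 (adjusted p = 0.00541, edgeR) and Tapbp by 1.36 ± 0.17 (adjusted p = 0.00317, edgeR), and both calls held under every alternative. Erap1 differed least of these, from 101.1 CPM on average in proestrus to 61.4 in diestrus, a log2 difference of 0.72 ± 0.10 (adjusted p = 0.00577, edgeR; up to 0.0507 with only these stages fitted). Tapbp overlaps genes on the opposite strand over 24.9% of its exon bases, and Tap2 over 18.5%.

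NLRC5 is the transactivator of class I promoters. Nlrc5 read 26.3 and 21.97 CPM at proestrus, 42.8 and 26 at estrus, 9.46 and 10.7 at metestrus, and 6.83 and 8.67 at diestrus. It was high and low in the same stages as the proteasome and TAP genes. Nlrc5 rose by 1.64 ± 0.27 from diestrus to proestrus (adjusted p = 0.00883, edgeR; 0.0569 without proestrus library 1) and fell by 1.77 ± 0.27 from estrus to metestrus (adjusted p = 0.0049, edgeR; at most 0.0423 under the alternatives). The MHC enhanceosome list of 7 genes includes the RFX and NF-Y subunits that bind the X and Y boxes. Of these genes edgeR called 0 across the stages, against 39.1% of all tested genes. It called 0 in any pair, with at most 2 at an unadjusted p under 0.05 in a pair. Rfx5, for example, lay between 14.5 and 27.1 CPM in all libraries.

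**Figure D3:**
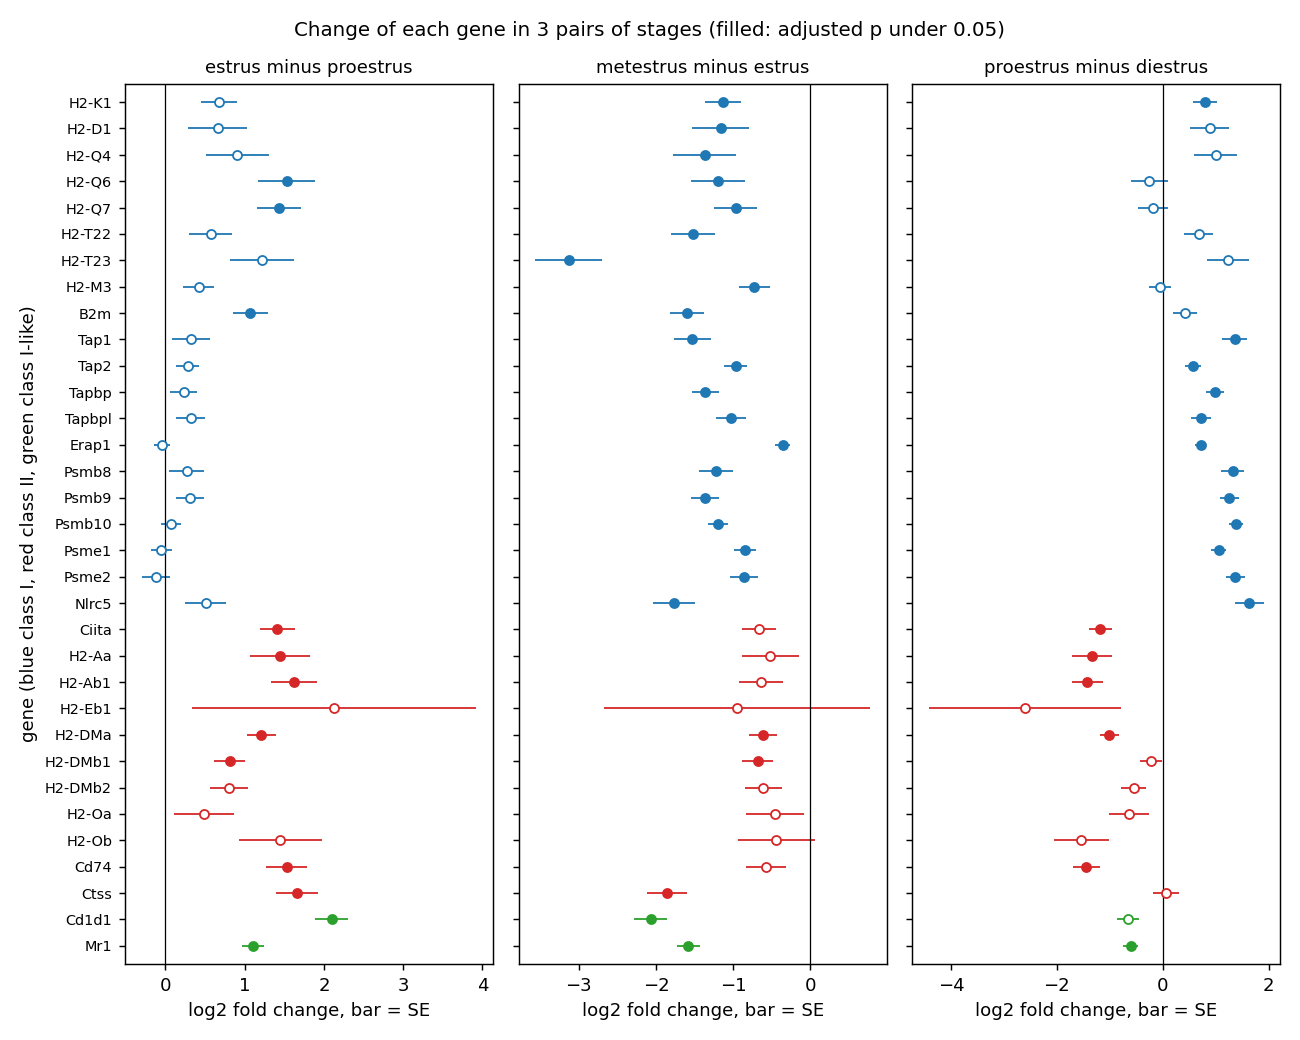
Log2 fold change of each gene with its SE for estrus minus proestrus, metestrus minus estrus and proestrus minus diestrus, with class I in blue, class II in red and class I-like in green. Filled points have an adjusted p under 0.05; all 20 class I genes are filled and below 0 in the middle panel, and in the right panel the filled class I points are above 0 and the filled class II points below it.

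Class II rose from proestrus to estrus. There 7 of 11 genes were called higher in estrus (Ciita, H2-Aa, H2-Ab1, H2-DMa, H2-DMb1, Cd74 and Ctss), against 8.12% of tested genes, with a median change of 1.45 beside 0.01. The count was 2 and 0 without proestrus library 1 and 2, and 4 and 2 without estrus library 1 and 2. From diestrus to proestrus 5 genes were called lower, against 10.4% of tested genes, with a median of -1.18 beside -0.01. That count was 1 and 2 without proestrus library 1 and 2, and 3 with only these stages fitted.

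From estrus to metestrus 3 class II genes were called lower (H2-DMa, H2-DMb1 and Ctss), a share near the 19.5% of all tested genes, with a median of -0.61 beside -0.05. The count was 6 without estrus library 1 and 1 without estrus library 2 or either metestrus library. In diestrus against metestrus all 11 class II fold changes were above 0, with a median of 0.43 beside 0.02. However, edgeR called 0 of them, against 0.508% of tested genes, and 0 had an unadjusted p under 0.05. DESeq2 and limma-voom also called 0. Ctss was called between estrus and diestrus, higher in estrus, and Cd74 between proestrus and metestrus, higher in metestrus, where DESeq2 called 5. The Cd74 call (adjusted p = 0.0495, edgeR) ended without any one proestrus or metestrus library, up to 0.238 without proestrus library 1. The count of that pair was 3 without either estrus library, and 4 and 2 without diestrus library 1 and 2.

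CIITA is the master regulator of class II genes. Ciita read 7.17 and 6.20 CPM at proestrus, 15.2 and 20.4 at estrus, 11.02 and 11.4 at metestrus, and 17.1 and 13.2 at diestrus. Proestrus was the lowest stage without overlap, and estrus and diestrus overlapped. It rose by 1.41 ± 0.22 from proestrus to estrus (adjusted p = 0.0127, edgeR; up to 0.0831 without proestrus library 2). Proestrus was 1.18 ± 0.22 below diestrus on the log2 scale (adjusted p = 0.0138, edgeR; up to 0.0714 without proestrus library 2).

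H2-Aa and H2-Ab1 encode the alpha and beta chains of I-A, the class II molecule of all common mouse strains. H2-Aa read 91.7 and 121 CPM at proestrus, 172 and 410 at estrus, 208 and 197 at metestrus, and 277 and 257 at diestrus. H2-Ab1 read 85.5 and 92.8 CPM at proestrus, 183 and 363 at estrus, 181 and 169 at metestrus, and 243 and 235 at diestrus. The estrus libraries of both genes lay on either side of the diestrus values, and proestrus was lowest. From proestrus to estrus H2-Ab1 rose by 1.62 ± 0.29 (adjusted p = 0.0179, edgeR; 0.0856 and 0.0946 without proestrus library 1 and 2) and H2-Aa by 1.45 ± 0.38 (adjusted p = 0.0475, edgeR; up to 0.184 without proestrus library 1). Among all tested genes H2-Ab1 (r = 0.981) and Cd74 (r = 0.978) had the profiles most like H2-Aa over the 8 libraries.

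Cd74 encodes the invariant chain, which fills the class II groove until the molecule reaches the endosome. It read 216 and 252 CPM at proestrus, 487 and 860 at estrus, 476 and 432 at metestrus, and 653 and 619 at diestrus. Cd74 rose by 1.53 ± 0.26 from proestrus to estrus (adjusted p = 0.0155, edgeR; up to 0.08 without proestrus library 1, and also lost without proestrus library 2), and proestrus lay 1.44 ± 0.26 below diestrus (adjusted p = 0.0118, edgeR; 0.0883 without proestrus library 1). As in H2-Aa and H2-Ab1, estrus library 2 held the highest value.

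H2-Eb1, the beta chain of I-E, did not follow the other class II chains. It read 38.7 and 3.08 CPM at proestrus, 176 and 6.86 at estrus, 4.51 and 89.7 at metestrus, and 128 and 125 at diestrus. Proestrus library 2, estrus library 2 and metestrus library 1 were low and the other 5 libraries high, so the libraries of a stage lay 12.6-fold, 25.6-fold and 19.9-fold apart in the first 3 stages and 1.03-fold in diestrus. No difference between stages was called (across the stages, adjusted p = 0.594, edgeR). H2-Eb1 amounted to between 42.2% and 102% of the H2-Aa level in the 5 high libraries and between 1.68% and 2.53% in the 3 low ones, in CPM. Over the same libraries H2-Ab1 stayed between 76.4% and 107% of H2-Aa and Cd74 between 208% and 284%.

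Some other genes of the region were low in the same libraries, picked here after their values were seen. H2-T3 read 1.28 and 0 CPM at proestrus, 5.55 and 0.0516 at estrus, 0 and 0.769 at metestrus, and 0.674 and 0.806 at diestrus. Gm11127, at chr17:36055816-36058371, read 6.97 and 0, 25.0 and 0.103, 0.178 and 3.72, and 3.42 and 3.78 CPM in the same order. It was 1 of the 12 genes most like H2-Eb1 over the libraries (r = 0.895) and the one in the MHC region. H2-Ea-ps, the pseudogene-labelled partner chain of I-E, was listed at 0 in estrus library 1, where H2-Eb1 was highest, and reached 4.44 CPM in estrus library 2. Reads were counted against the reference genome, and ICR mice are outbred. The part of allele differences between mice in these counts was not tested.

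**Figure D4:**
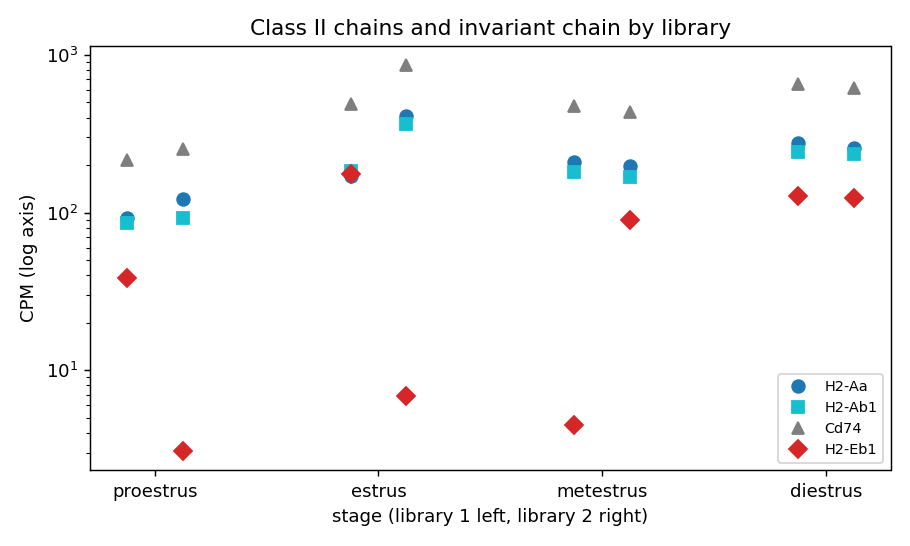
CPM (log axis) of H2-Aa, H2-Ab1, Cd74 and H2-Eb1 in the 2 libraries of each stage. H2-Eb1 lies at 3.08, 6.86 and 4.51 in 3 libraries and between 38.7 and 176 in the other 5, while the other 3 genes keep close ratios to each other.

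H2-DM exchanges the invariant chain peptide for antigen, and H2-DO restrains it. H2-DMa read 11.7 and 8.43 CPM at proestrus, 23.04 and 23.5 at estrus, 15.3 in both metestrus libraries, and 21.03 and 19.6 at diestrus. The 4 stages did not overlap, and H2-DMa rose by 1.21 ± 0.18 into estrus (adjusted p = 0.0114, edgeR; up to 0.065 without estrus library 2). H2-DMb1 and H2-DMb2 lay between 7.58 and 16.97 CPM. They share 22.7% and 24.8% of their windows, mostly with each other, and H2-DMb1 rose by 0.81 ± 0.20 into estrus (adjusted p = 0.0392, edgeR; up to 0.169 under the alternatives, and lost under 8 of the 15). H2-Oa and H2-Ob, mainly known from B cells and thymus, did not exceed 2.02 and 5.52 CPM, and neither was called across the stages.

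Cathepsin S, the product of Ctss, degrades the invariant chain in antigen-presenting cells. Ctss read 112 and 73.0 CPM at proestrus, 284 and 304 at estrus, 83.3 and 78.9 at metestrus, and 71.2 and 107 at diestrus. Estrus stood alone and the other 3 stages overlapped, unlike the chain genes, whose diestrus level was high. Ctss rose by 1.66 ± 0.26 into estrus (adjusted p = 0.0117, edgeR; up to 0.0652 without estrus library 2) and fell by 1.86 ± 0.26 from estrus to metestrus (adjusted p = 0.00382, edgeR; at most 0.0397 under the alternatives). The endosomal protease and class II turnover list holds 10 genes. Of these, 4 were called higher in estrus than in proestrus, against 8.12% of tested genes. In metestrus against estrus 7 were called lower, against 19.5%. Ctsl, another cathepsin, read 2303 and 1139 CPM at proestrus, 3771 and 2556 at estrus, 223 and 214 at metestrus, and 477 and 276 at diestrus.

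The class I-like genes present nonpeptide antigens, CD1d lipids to natural killer T cells and MR1 vitamin B metabolites to mucosal-associated T cells. Cd1d1 read 5.28 and 6.00 CPM at proestrus, 22.2 and 26.2 at estrus, 5.53 and 5.98 at metestrus, and 7.68 and 10.2 at diestrus. Estrus stood far above the rest: Cd1d1 rose by 2.10 ± 0.21 into estrus (adjusted p = 0.00404, edgeR) and fell by 2.07 ± 0.21 after it (adjusted p = 0.00193, edgeR). Both calls held under every alternative, though 19.1% of its windows are shared with Cd1d2. Mr1 read 35.7 and 31.9 CPM at proestrus, 78.8 and 67.2 at estrus, 23.6 and 25.2 at metestrus, and 46.2 and 56.1 at diestrus. It rose by 1.11 ± 0.14 into estrus (adjusted p = 0.00763, edgeR; 0.0593 without proestrus library 2) and fell by 1.58 ± 0.15 after it (adjusted p = 0.00163, edgeR; at most 0.0238 under the alternatives). Mr1 was the one gene of the 33 called higher in diestrus than in metestrus (1.07 ± 0.14, adjusted p = 0.0452, edgeR). That call ended under 9 of the 15 alternatives (up to 0.342 without metestrus library 2).

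Of 12 tested genes of interferon signalling, 10 were called across the stages, against 39.1% of all tested genes. In metestrus against estrus 8 were called lower and 2 higher, against 19.5% and 16.7%. In proestrus against diestrus 5 were called higher and 1 lower, against 12% and 10.4%, and in estrus against diestrus 8 were called higher and 2 lower, against 13.9% and 9.97%. Irf9, the DNA-binding part of a factor that carries interferon signals to the nucleus, read 117.5 and 101.3 CPM at proestrus, 129.4 and 97.3 at estrus, 35.9 and 29.8 at metestrus, and 40.9 and 37.1 at diestrus. It fell by 1.79 ± 0.18 from estrus to metestrus (adjusted p = 0.0019, edgeR). Ifngr2, a chain of the interferon gamma receptor, fell by 1.94 ± 0.17 there (adjusted p = 0.00151, edgeR). Ifng itself had at most 2 counts in any library and was not tested.

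Of 11 tested interferon gamma targets, 8 were called higher in proestrus than in diestrus, against 12% of tested genes. In metestrus against estrus 8 were called lower, against 19.5%. Irgm1, an immunity-related GTPase, read 176 and 164 CPM at proestrus, 191 and 159 at estrus, 49.4 and 39.7 at metestrus, and 38.8 and 37.2 at diestrus. Between proestrus and estrus 0 of the 11 targets were called by edgeR, against 15.1% of tested genes, and 4 had an unadjusted p under 0.05.

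The summed level of epithelial markers was also lower in metestrus and diestrus than in estrus, but unlike that of class I it was highest in proestrus. The 8 markers summed to 5981 and 4870 CPM at proestrus, 4289 and 3724 at estrus, 1391 and 1275 at metestrus, and 903 and 1322 at diestrus, and none was at 0 in any library. From proestrus to estrus 0 of the 8 were called by edgeR, against 15.1% of tested genes. Among them 7 had a fold change below 0, with a median of -0.38, where that of class I was 0.37. Of the 8 markers, 6 were called lower in metestrus than in estrus, against 19.5% of tested genes. In proestrus against diestrus 6 were called higher, against 12%. Epcam, an adhesion molecule of epithelia, fell by 1.5 ± 0.19 from estrus to metestrus (adjusted p = 0.00309, edgeR). Smooth muscle markers were not called in any pair of stages (0 of 5, edgeR, with at most 1 at an unadjusted p under 0.05 in a pair), but diestrus library 1 held 11080 CPM of them against 3758 in diestrus library 2. The part of the epithelial and muscle shares in the class I values was not tested.

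Markers of antigen-presenting cells were set beside class II. The 11 dendritic cell markers summed to 64.1 and 61.4 CPM at proestrus, 128 and 162 at estrus, 95.7 and 112 at metestrus, and 113 in both diestrus libraries. Of these 6 were called higher in estrus than in proestrus and 6 lower in proestrus than in diestrus, against 8.12% and 10.4% of tested genes, and none was at 0. In metestrus against estrus 2 were called lower and 1 higher, against 19.5% and 16.7%. The higher one was Zbtb46, a transcription factor of classical dendritic cells. It read 7.79 and 9.32 CPM at proestrus, 9.20 and 10.01 at estrus, 16.4 and 17.7 at metestrus, and 22.4 and 20.6 at diestrus, so proestrus and estrus overlapped and the later stages lay above them. Itgax, an integrin of dendritic cells and some macrophages, rose by 1.92 ± 0.25 into estrus (adjusted p = 0.00748, edgeR) and was 1.5 ± 0.24 lower in proestrus than in diestrus (adjusted p = 0.00849, edgeR). Flt3, the growth factor receptor of dendritic cells, did not exceed 5.35 CPM.

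The 12 macrophage markers summed to 1303 and 829 CPM at proestrus, 2558 and 2672 at estrus, 903 and 828 at metestrus, and 799 and 1095 at diestrus. Here 6 were called higher in estrus than in proestrus, against 8.12% of tested genes. In metestrus against estrus 10 were called lower, against 19.5%. In proestrus against diestrus 4 were called higher and 2 lower, against 12% and 10.4%, where the class II calls were all lower. The sum of these markers was highest in estrus, as was the level of Ctss. Adgre1, which encodes the macrophage antigen F4/80, rose by 1.95 ± 0.19 into estrus (adjusted p = 0.00361, edgeR) and fell by 1.65 ± 0.19 after it (adjusted p = 0.00248, edgeR). The 5 leukocyte markers summed to 360 and 293 CPM at proestrus, 648 and 575 at estrus, 245 and 274 at metestrus, and 281 and 303 at diestrus. Of these, 4 were called higher in estrus than in proestrus, against 8.12% of tested genes. Between proestrus and diestrus edgeR called 0 of the 5, against 22.4% of tested genes.

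The T cell marker Cd3e did not exceed 1.08 CPM. The 7 B cell markers summed to 42.3 and 30.0 CPM at proestrus, 108 and 97.1 at estrus, 28.7 and 31.5 at metestrus, and 49.0 and 39.5 at diestrus, most of it Ighm. Of the 7, 4 passed the filter on low counts, and 2 of these, Ighm and Cd79b, were called across the stages, against 39.1% of all tested genes. Cd79b did not peak in estrus: it read 6.51 and 6.00 CPM at proestrus, 5.70 and 7.02 at estrus, 2.23 and 2.56 at metestrus, and 1.26 and 1.51 at diestrus. The 10 T or natural killer cell markers summed to between 18.0 and 41.9 CPM. Of the 9 tested, 1 was called across the stages, against 39.1% of all tested genes. The part of dendritic cells, macrophages and lymphocytes in the class II values was not tested.

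**Figure D5:**
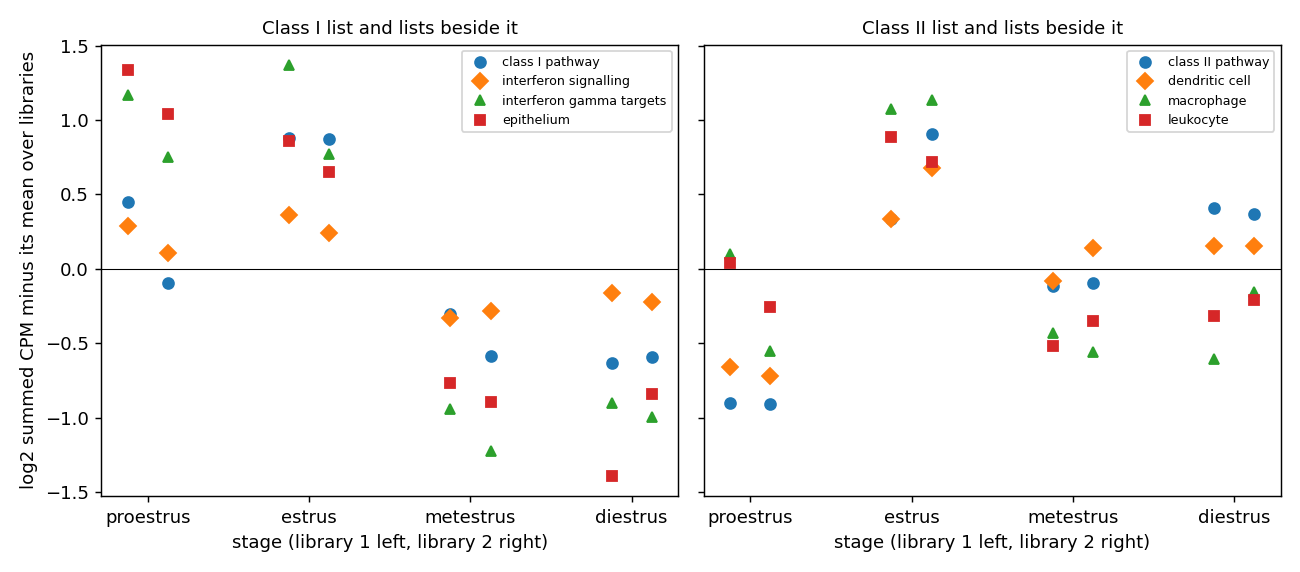
Log2 of the summed CPM of gene lists minus its mean over the 8 libraries, for class I with interferon and epithelial lists (left) and class II with dendritic cell, macrophage and leukocyte lists (right). The class I, interferon and epithelial sums are lower in all metestrus and diestrus libraries than in estrus; the class II and dendritic cell sums are lowest in proestrus, and the macrophage sum is highest in estrus.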

How the data were processed

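RNA-seq of mouse uterus at 4 stages of the estrous cycle was used as deposited, as raw counts of reads per gene in 8 libraries. Per the submitters' processing notes, STAR and featureCounts (Subread) were used with GRCm38 (mm10), and per the labels' protocols the libraries were stranded mRNA libraries. For versions and for the strand and multi-mapping settings of the counting, the sources used here give nothing, so overlapping genes and copies are uncertain. Library totals lay between 17863546 and 21896786 counts, and intervals other than replicate spread are not given.

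Gene names came from GENCODE M21 (GRCm38): 52007 of 52308 identifiers matched, and the rest held at most 0.024% of a library. Genes were filtered with filterByExpr, scaled by TMM and fitted over all 8 libraries with edgeR 4.0.16 in R 4.3.3 (glmQLFit and glmQLFTest, 4 residual degrees of freedom), with Benjamini-Hochberg adjustment over 18114 genes. Each SE was taken from the F statistic, as the absolute log2 fold change over the root of F. The fit was tested on simulated counts. Alternatives were DESeq2 1.42.0, its size factors in edgeR, limma-voom (limma 3.58.1), other filters, only the libraries of a pair, a replicate block and leaving out each library. Where this leaves 1 library in a stage, that library is assumed to vary like the others.

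The 33 genes and all lists were chosen with earlier results of these data known. All 33 are accounted for. From each other list up to 4 genes with the smallest p across the stages could be named, besides fixed defining markers, and the exceptions are given as such. Similar profiles were ranked by Pearson's r over 8 libraries, as a description. The libraries share depth and scaling. Promoter sequences are RefSeq's (GRCm38.p6), and 2 listed genes, H2-Q8 and H2-Q9, were not matched and are not used here. Results for some listed genes are not reported here.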

Additional observations from a re-analysis of the deposited data

How the results depend on the processing

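None of the called differences changed its sign under the alternatives run. DESeq2 called 5 class I genes between proestrus and estrus and 5 class II genes between proestrus and metestrus. Without a filter on low counts, 1 class II gene was called between estrus and metestrus and 2 between proestrus and metestrus. With only the libraries of the pair, 4 class I and 3 class II genes were called between diestrus and proestrus, and 4 class II genes between proestrus and metestrus. The log2 ratio of class II to class I in metestrus was -1.60 without the highest gene of each class. In diestrus it was -0.68 with the chain genes only and -0.93 without H2-Eb1, an alternative chosen after seeing the data. The cause of these shifts was not tested.

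Leaving out each library in turn, the class I counts ran from 14 to 18 across the stages, from 0 to 3 between proestrus and estrus, from 10 to 20 between estrus and metestrus, from 0 to 2 between metestrus and diestrus, from 5 to 11 between diestrus and proestrus, from 13 to 18 between estrus and diestrus, and from 0 to 13 between proestrus and metestrus. The class II counts ran from 2 to 6 across the stages, from 0 to 7 between proestrus and estrus, from 1 to 6 between estrus and metestrus, from 1 to 5 between diestrus and proestrus, and from 0 to 4 between proestrus and metestrus.

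Same-numbered libraries deviated together with correlations between -0.0926 and 0.145, so the numbers were not taken to pair the libraries. With the replicate number as a block, 19 class I genes were called between estrus and metestrus, 18 between estrus and diestrus and 18 across the stages, and 5 class II genes across the stages. The counts of the other pairs were as without the block. With 2 libraries a stage, many adjusted p lie close to 0.05 and depth limits what can be said of genes with few counts, such as H2-Oa, H2-Ob and H2-T3.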
